A study of Mus musculus with 12 samples.

Results

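Genes of the mouse major histocompatibility complex (MHC), which in mice is named H2, were followed in adult cardiomyocytes with and without desmin, the muscle-specific intermediate filament protein. All genes whose symbol begins with H2- or is B2m, Cd74, Tap1, Tap2, Tapbp or Ciita were taken, which gave 39 of the 21493 genes listed. By role, 2 were classical class I genes (class Ia), 21 non-classical class I genes (class Ib), 4 encoded class I assembly proteins, 4 class II chains and 7 class II accessory proteins. The remaining gene, H2-Ke6, encodes a hydroxysteroid dehydrogenase and carries the H2 name for its position only.

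Poly-A RNA was sequenced from heart muscle cells of 3-month-old mice in 4 groups of 3 libraries: Des+/+ non-swim, Des+/+ swim, Des-/- non-swim and Des-/- swim. Des+/+ mice carried desmin and Des-/- mice lacked it, and swim mice had undergone swimming as exercise stress. Per the study's methods, mice of both genotypes carried the αMHC-GFP transgene, which a cardiac myosin promoter drives, on a 129SV background reached by backcrossing. Each library was a pool of several mice, used independently of sex, whose hearts had been dissociated with trypsin and collagenase D and harvested at once. The sources used here give no sorting step, so other cells of the heart could be present.

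Class I molecules present peptides from inside the cell on the surface of nearly all nucleated cells. They consist of a heavy chain (H2-K, H2-D or a class Ib chain) and beta-2 microglobulin, and receive peptides through the TAP transporter. Class II molecules present peptides from endosomes, and are made mainly by macrophages, dendritic cells and B cells under the control of the transactivator CIITA. Cardiomyocytes are known for low class I and little class II expression at rest, while the heart holds resident macrophages that carry class II.

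The promoters of the genes on which the results turn are shown first, because class I and class II genes are each controlled as a set by short motifs close to the start. Sequences are RefSeq's for build GRCm38.p6, which held an entry for 33 of the 39 genes and for 18 of the 23 that could be tested. Where RefSeq gave several starts, the most downstream is shown. By the gene starts of GENCODE, the stretch of H2-D1 lies wholly within the gene, that of H2-DMb1 mostly and that of H2-K1 in small part. Capitals mark the core letters of the X box (ACNGATG, part of the site of RFX factors) and the Y box (GATTGG, the site of NF-Y) in class II promoters, on either strand, over the 140 bases before the start.
H2-Aa, chr17:34287824-34287963, minus strand: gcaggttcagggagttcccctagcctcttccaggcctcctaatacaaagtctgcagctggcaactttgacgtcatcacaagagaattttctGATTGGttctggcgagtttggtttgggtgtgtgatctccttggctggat
H2-Eb1, chr17:34305727-34305866, plus strand: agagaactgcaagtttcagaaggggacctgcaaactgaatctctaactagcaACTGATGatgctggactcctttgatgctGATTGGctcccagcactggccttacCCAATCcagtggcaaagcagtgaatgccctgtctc
H2-DMb1, chr17:34153051-34153190, plus strand: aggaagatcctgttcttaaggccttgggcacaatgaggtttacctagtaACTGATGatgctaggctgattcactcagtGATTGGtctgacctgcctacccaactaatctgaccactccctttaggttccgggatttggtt
In class I promoters, capitals mark the kB site (GGGGATTCC, bound by NF-kB factors), the X box letters and the Y box on either strand, over the 180 bases before the start.
H2-K1, chr17:34000334-34000513, minus strand: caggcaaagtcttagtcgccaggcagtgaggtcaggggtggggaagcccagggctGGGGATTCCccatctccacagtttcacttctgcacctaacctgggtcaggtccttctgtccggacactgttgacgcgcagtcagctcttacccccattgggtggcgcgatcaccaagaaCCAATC
H2-D1, chr17:35262914-35263093, plus strand: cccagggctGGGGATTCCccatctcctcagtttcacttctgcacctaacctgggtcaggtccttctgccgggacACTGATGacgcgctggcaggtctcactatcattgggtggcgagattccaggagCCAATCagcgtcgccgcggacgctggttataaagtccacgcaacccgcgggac
H2-Q6, chr17:35424670-35424849, plus strand: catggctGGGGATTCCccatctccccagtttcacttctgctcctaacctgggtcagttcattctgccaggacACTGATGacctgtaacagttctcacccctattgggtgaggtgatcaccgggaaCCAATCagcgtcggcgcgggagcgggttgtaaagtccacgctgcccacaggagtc
H2-Q7, chr17:35438975-35439154, plus strand: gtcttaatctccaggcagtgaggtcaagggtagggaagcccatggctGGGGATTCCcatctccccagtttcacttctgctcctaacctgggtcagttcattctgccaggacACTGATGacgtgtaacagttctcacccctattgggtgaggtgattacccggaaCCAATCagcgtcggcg
H2-Eb1 and H2-DMb1 held the X box letters followed by a Y box in the same order and orientation. H2-Aa held the Y box but no match to the X box letters in this stretch, and other forms of the X box were not searched. The 4 class I promoters held the same kB site ahead of a Y box on the opposite strand, and in H2-D1, H2-Q6 and H2-Q7 the X box letters lay between them. Over the 250 bases before the start, the X box letters matched 18 of 33 genes of the set and 8.31% of 32851 windows in RefSeq's table. The Y box matched 26 of 33 genes and 14.6% of all windows. The kB site matched only the 4 class I genes shown among the 33 and 0.213% of all windows. Letters of the interferon-stimulated response element (TTCNNTTTC, either strand) matched B2m, H2-T22 and H2-T23 and 7.13% of all windows. The 4 class I promoters shown hold agtttcacttct after the kB site, which these letters cannot match, and other forms of the element were not searched. None of the motifs overlapped another in the stretches shown. Many of these genes are copies of each other, so their promoters are not independent observations, and a match in these letters is not evidence of a bound factor. A lack of a match does not show that an element is absent, since only the letters given were searched.

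Reads assigned to genes ranged from 4320819 to 12072443 per library. Of reads with 1 alignment, those in no gene made up 34.0 to 39.3% in Des+/+ non-swim and 45.9 to 50.4% in Des+/+ swim libraries. They made up 34.2 to 52.3% in Des-/- non-swim and 57.2 to 64.5% in Des-/- swim libraries. The share thus differed between groups, and its bearing on the comparisons was not tested. Levels are given as CPM, counts divided by the scaled library total and put on a common base, a relative measure. The targeted gene, Des, lay between 973 and 3647 CPM in the 6 Des+/+ libraries and between 50.3 and 100.5 CPM in the 6 Des-/- libraries, so every library matched its genotype label. All 10 cardiomyocyte markers were detected. Their summed level was 61151 to 93802 CPM in Des+/+ non-swim, 29438 to 51162 in Des+/+ swim, 5499 to 27855 in Des-/- non-swim and 14159 to 24910 in Des-/- swim libraries.

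Of the 39 genes, 23 had enough reads to be tested. The 16 others had at most 11 reads in any library: H2-Q1, H2-Q2, H2-Q10, H2-T3, H2-M2, H2-M5, H2-M10.3, H2-Eb2 and H2-Oa, with 1 to 11 reads in their highest library, and H2-M1, H2-M9, H2-M10.1, H2-M10.2, H2-M10.4, H2-M10.5 and H2-M10.6, with 0 reads in all 12 libraries. A count of 0 allows up to 3 reads, which was 0.656 CPM in the shallowest library. All H2- genes lay on chromosome 17 of GRCm38 between 33996017 and 37483552, a span of 3.49 Mb that held 141 other listed genes. Tapbp lies just outside this span on the same chromosome, B2m on chromosome 2, Ciita on chromosome 16 and Cd74 on chromosome 18. Per kilobase of exon, the highest mean levels in Des+/+ non-swim libraries were those of B2m (543 ± 287 CPM per kb, SD, n = 3) and H2-D1 (425 ± 259), which did not differ beyond their spread, followed by H2-K1 (114 ± 11.8) and Tapbp (65.3 ± 6.74). Class II genes were far lower, at 10.5 ± 3.55 CPM per kb for H2-Ab1, 7.62 ± 4.21 for H2-Aa and 7.31 ± 5.32 for H2-Eb1, and these 3 did not differ beyond their spread.

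Before the groups were compared, 4 libraries were found to stand apart within the H2 set. H2-Eb1 and H2-Aa encode chains of the 2 class II molecules, I-E and I-A. The ratio of their reads was 0.0357 in Des-/- swim replicate 1, 0.075 in Des+/+ non-swim replicate 1, and 0.0817 and 0.0837 in Des+/+ swim replicates 3 and 2. In the other 8 libraries it lay between 0.566 and 1.08. No library fell between these ranges, and each group but Des-/- non-swim held at least 1 of the low libraries.

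**Figure D1:**
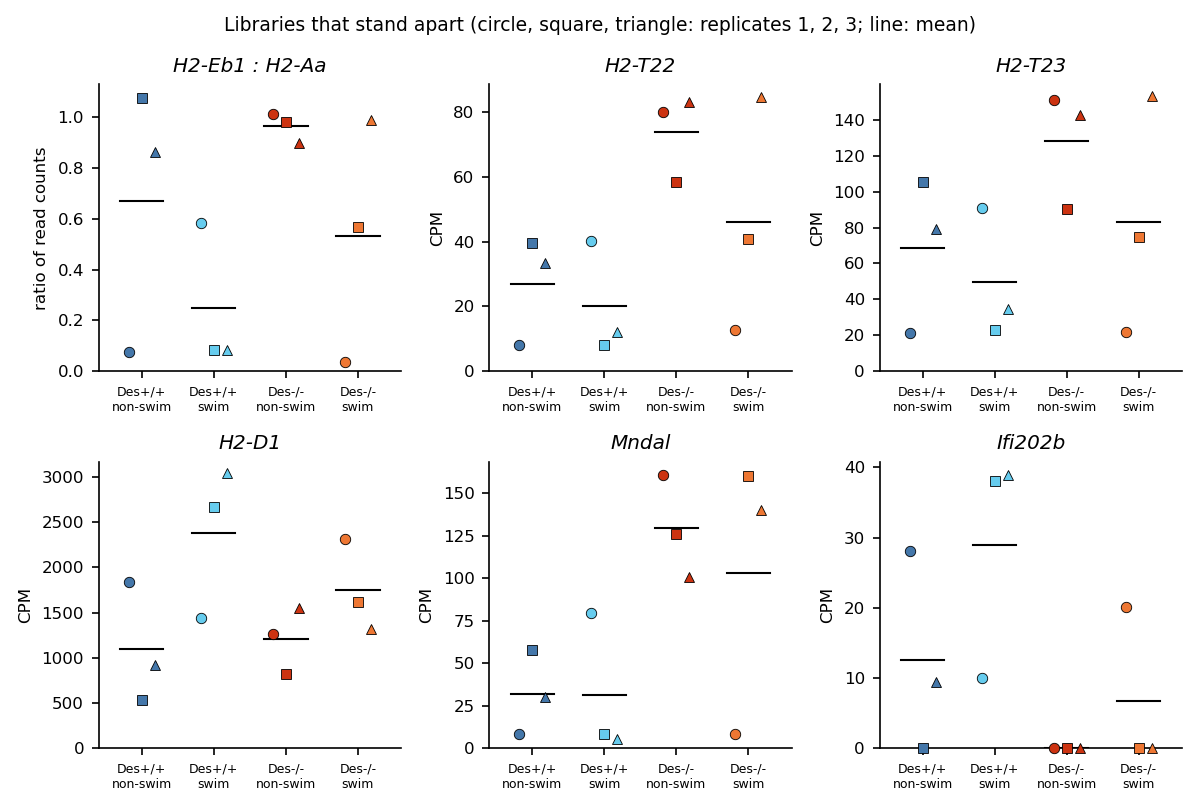
Ratio of H2-Eb1 to H2-Aa reads and CPM of H2-T22, H2-T23, H2-D1, Mndal and Ifi202b in each library (y axes, linear from 0) by group (x axis); points are libraries, with the replicate number given by shape, and lines are group means. Des+/+ non-swim replicate 1, Des+/+ swim replicates 2 and 3 and Des-/- swim replicate 1 are the 4 lowest for H2-Eb1 to H2-Aa, H2-T22, H2-T23 and Mndal and the 4 highest for H2-D1 and Ifi202b.

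The same 4 libraries were the lowest of all 12 in H2-T22 (8.01 to 12.8 CPM, against 33.3 to 84.7 in the others) and in H2-T23 (21.0 to 34.7 CPM, against 75.0 to 153). H2-T23 encodes Qa-1, which presents leader peptides of class I chains to natural killer cell receptors. In H2-D1 they were instead the 4 highest, at 1836 to 3040 CPM against 535 to 1617. Leaving aside H2-Eb1 and H2-Aa, whose ratio picked these libraries, 2 of the 21 other genes tested from the set (H2-T22 and H2-T23) had them as their 4 lowest, as did 48 of 13156 genes tested in all. The reverse order held for H2-D1 in the set and for 26 genes in all. Outside the locus, the widest gaps were at 2 genes of the Ifi200 cluster on chromosome 1, which were picked after their values were seen. Mndal was at 5.69 to 8.49 CPM in the 4 libraries and at 30.0 to 161 CPM in the others, and Ifi202b at 20.05 to 38.8 CPM against 0 to 10.04. Both the H2 locus and the Ifi200 cluster are known to differ between inbred mouse strains, and the strain makeup of these pools was not tested. These are descriptions of the libraries, with no test, and the comparisons below are given with all 12 libraries and, where it matters, without these 4.

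The first comparison asked how the genes differed between genotypes without swimming. Of the 23 genes tested, 8 were higher in Des-/- than in Des+/+ cardiomyocyte libraries and 1, H2-Ke6, was lower (edgeR quasi-likelihood test, adjusted p under 0.05 over all genes). The 8 were H2-K1 of class Ia, H2-Q6 and H2-Q7 of class Ib, H2-Aa and H2-Ab1 of class II, and the class II accessory genes Cd74, H2-DMa and H2-DMb1. Their fold changes ran from 2.33 (H2-K1) to 8.36 (H2-DMb1), the latter being 4.26 without Des-/- non-swim replicate 3. In the same comparison 32.0% of all genes tested were called, 14.0% as higher and 18.0% as lower. The 23 genes had a median log2 change of 1.22, and 22 of them lay above 0, against 52.6% of all genes. In 15 of the 23 every Des-/- library was above every Des+/+ library, an order that 23.0% of all genes showed.

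**Figure D2:**
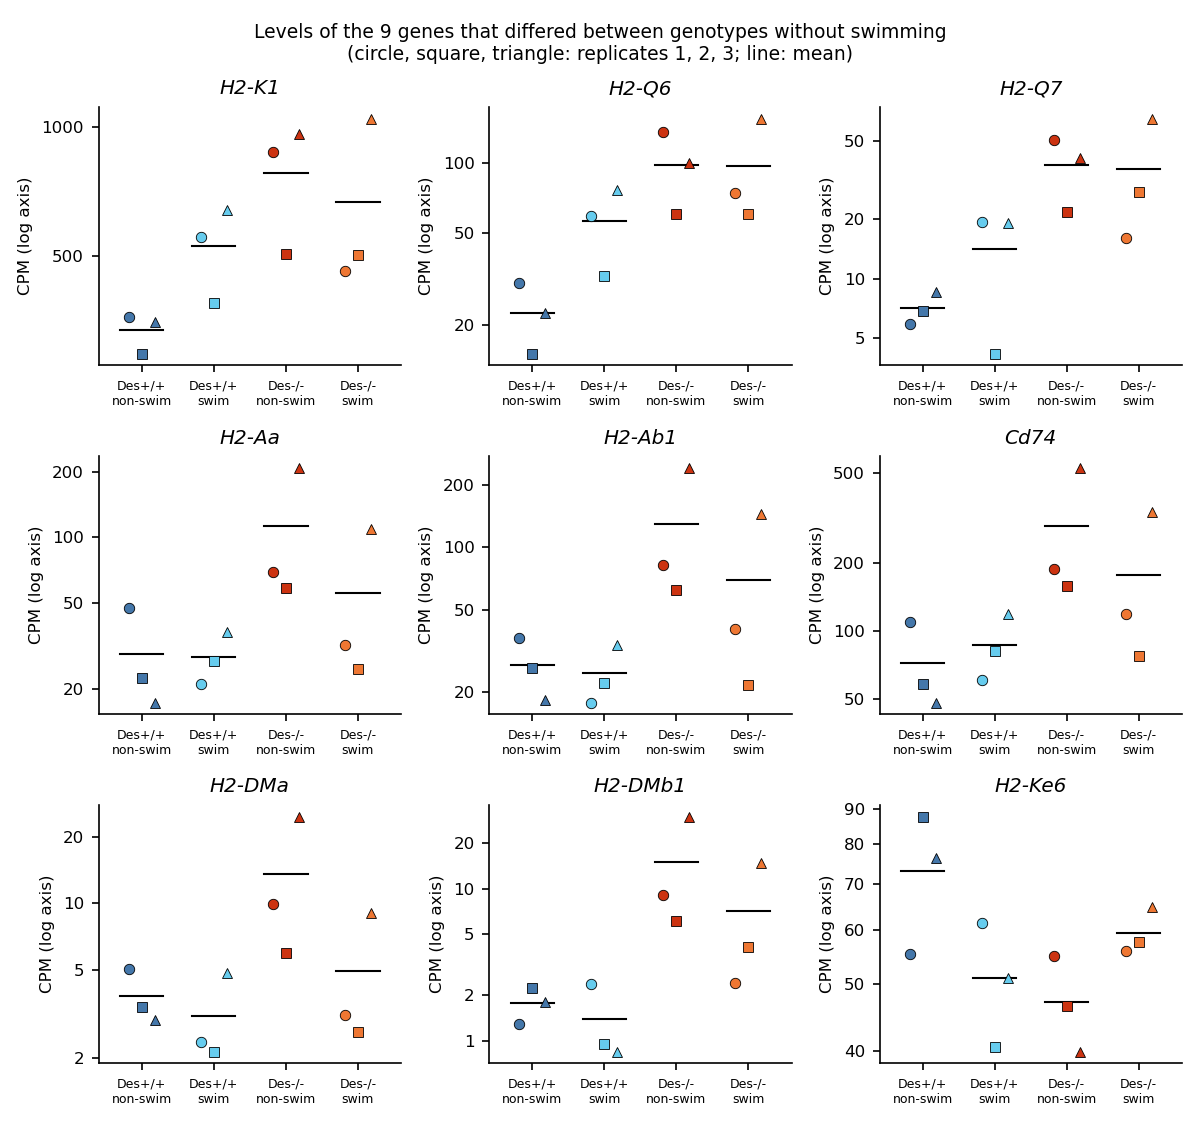
CPM (y axis, log scale) of the 9 genes that differed between genotypes without swimming, in each library by group (x axis); points are libraries, with the replicate number given by shape, and lines are group means. In the Des-/- non-swim group all 3 libraries lie above the Des+/+ non-swim libraries for 8 genes and below them for H2-Ke6, and replicate 3 of both Des-/- groups is the highest library of its group in all 5 class II and accessory genes.

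Among the classical class I chains, H2-K1 rose and H2-D1 did not pass the test. H2-K1 was at 359, 296 and 351 CPM in Des+/+ non-swim replicates 1 to 3 and at 875, 506 and 963 CPM in the Des-/- non-swim replicates. The groups did not overlap, and the log2 change was 1.22 (SE 0.34, adjusted p = 0.0184). H2-D1 was at 1836, 535 and 920 CPM in Des+/+ and at 1261, 818 and 1555 CPM in Des-/- non-swim libraries. These overlapped throughout, with the highest value in a Des+/+ library that stood apart above, and the log2 change was 0.14 (SE 0.44, adjusted p = 0.83). Without the 4 libraries that stood apart, the log2 change of H2-D1 was 0.73 (SE 0.38, adjusted p = 0.214), still not called.

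The 2 class Ib genes that rose, H2-Q6 and H2-Q7, encode chains of the Qa-2 antigen, a non-classical class I molecule. H2-Q6 was at 30.3, 15.1 and 22.6 CPM in Des+/+ and at 135, 59.9 and 99.3 CPM in Des-/- non-swim libraries. All 3 Des-/- libraries lay above the Des+/+ libraries, and the log2 change was 2.12 (SE 0.44, adjusted p = 0.00488). H2-Q7 was at 5.89, 6.90 and 8.57 CPM against 50.5, 21.9 and 40.8 CPM, a log2 change of 2.40 (SE 0.60, adjusted p = 0.0117). Both genes were called with each library left out in turn and also without the 4 libraries that stood apart. They share 10.8% and 12.9% of the 100-base stretches of their longest transcripts with other genes, mostly of the Q group, so reads could not always be placed on one of them, and the split between the 2 is uncertain. The other 5 class Ib genes tested (H2-M3, H2-Q4, H2-T22, H2-T23 and H2-T24) had log2 changes of 0.45 to 1.45 and none was called. H2-T22 was at 8.01, 39.6 and 33.3 CPM in Des+/+ and at 80.1, 58.3 and 83.1 CPM in Des-/- non-swim libraries, which did not overlap, yet its log2 change of 1.45 had an SE of 0.72 (adjusted p = 0.145). Without the 4 libraries that stood apart it was 1.01 (SE 0.32, adjusted p = 0.075).

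None of the 4 class I assembly genes was called. B2m, the light chain of every class I molecule, was at 732, 245 and 423 CPM in Des+/+ and at 696, 531 and 758 CPM in Des-/- non-swim libraries, and the groups overlapped. Its log2 change was 0.50 (SE 0.34, adjusted p = 0.28), and 0.98 (SE 0.33, adjusted p = 0.0846) without the 4 libraries that stood apart. Tap1 and Tap2, the subunits of the peptide transporter, had log2 changes of 0.87 (SE 0.41, adjusted p = 0.124) and 0.37 (SE 0.16, adjusted p = 0.088). Tapbp, or tapasin, which bridges the transporter and the heavy chain, had a log2 change of 0.37 (SE 0.18, adjusted p = 0.129). In these last 3 genes every Des-/- non-swim library was above every Des+/+ non-swim library. Single alternatives did call some of them: B2m without Des+/+ non-swim replicate 1 (log2 change 0.98, adjusted p = 0.0376), Tap1 with only the 6 non-swim libraries (0.88, adjusted p = 0.0465), and Tap2 with upper-quartile scaling (0.48, adjusted p = 0.0364).

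Of the class II chains, H2-Aa and H2-Ab1, which pair as I-A, were both called. H2-Aa was at 47.1, 22.4 and 17.2 CPM in Des+/+ and at 68.9, 58.5 and 210 CPM in Des-/- non-swim libraries, a log2 change of 1.96 (SE 0.64, adjusted p = 0.0353). H2-Ab1 was at 36.4, 26.1 and 18.2 CPM against 82.0, 62.2 and 243 CPM, a log2 change of 2.27 (SE 0.68, adjusted p = 0.0254). In both genes replicate 3 of Des-/- non-swim was the highest of all 12 libraries. H2-Eb1 was at 3.54, 24.2 and 14.9 CPM in Des+/+ and at 69.7, 57.5 and 189 CPM in Des-/- non-swim libraries. Its log2 change was 2.89 with an SE of 1.16, and it was not called (adjusted p = 0.0765). Without the 4 libraries that stood apart, which its own low values had helped to pick, the log2 change was 2.43 (SE 0.91, adjusted p = 0.109). When only the 6 non-swim libraries were fitted, so that the spread between swim libraries did not enter, its log2 change was 2.92 (SE 0.71, adjusted p = 0.027).

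Of the 6 class II accessory genes tested, 3 were called, all as higher. Cd74, the invariant chain that fills the class II groove until peptide loading, was at 109, 58.3 and 48.1 CPM in Des+/+ and at 189, 158 and 528 CPM in Des-/- non-swim libraries. Its log2 change was 2.02 (SE 0.60, adjusted p = 0.0247). H2-DMa and H2-DMb1 encode the DM heterodimer, which removes the invariant chain peptide. H2-DMb1 was at 1.30, 2.22 and 1.80 CPM in Des+/+ and at 9.03, 6.11 and 29.6 CPM in Des-/- non-swim libraries, a log2 change of 3.06 (SE 0.76, adjusted p = 0.0115). This was the largest of the 23 with all libraries, but without Des-/- non-swim replicate 3 it was 2.09 (adjusted p = 0.0457), below H2-Q7 at 2.35. H2-DMa was at 5.07, 3.39 and 2.98 CPM against 9.99, 6.002 and 24.7 CPM, a log2 change of 1.83 (SE 0.59, adjusted p = 0.035). H2-DMb1 and its neighbour H2-DMb2 share 13.7% and 12.9% of their 100-base stretches, so reads of one could be counted in the other. Ciita, the transactivator, was at 2.59, 2.57 and 1.26 CPM in Des+/+ and at 5.31, 5.78 and 15.5 CPM in Des-/- non-swim libraries. Its log2 change of 2.06 (SE 0.74) narrowly missed the threshold (adjusted p = 0.0521), and it was called with DESeq2, which called 11 of the 23 genes and 36.4% of all genes in this comparison. H2-DMb2 and H2-Ob, the latter a chain of the DO modulator of DM, had log2 changes of 1.41 (SE 0.59, adjusted p = 0.0851) and 1.17 (SE 0.52, adjusted p = 0.104).

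H2-Ke6 was at 55.4, 87.7 and 76.4 CPM in Des+/+ and at 55.0, 46.5 and 39.9 CPM in Des-/- non-swim libraries. The groups were separated by less than 1 CPM, and the log2 change was -0.64 (SE 0.20, adjusted p = 0.0299). Of its 100-base stretches, 92% lie also in the read-through gene Gm20427, so its count could be incomplete. With upper-quartile scaling, which shifted the median log2 change of all genes by 0.102, H2-Ke6 was not called. Nor was it called with only the 6 libraries compared, or without replicate 3 of both Des-/- groups. It also lost the call when Des+/+ non-swim replicate 2 or 3 or Des-/- non-swim replicate 2 or 3 was left out alone.

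**Figure D3:**
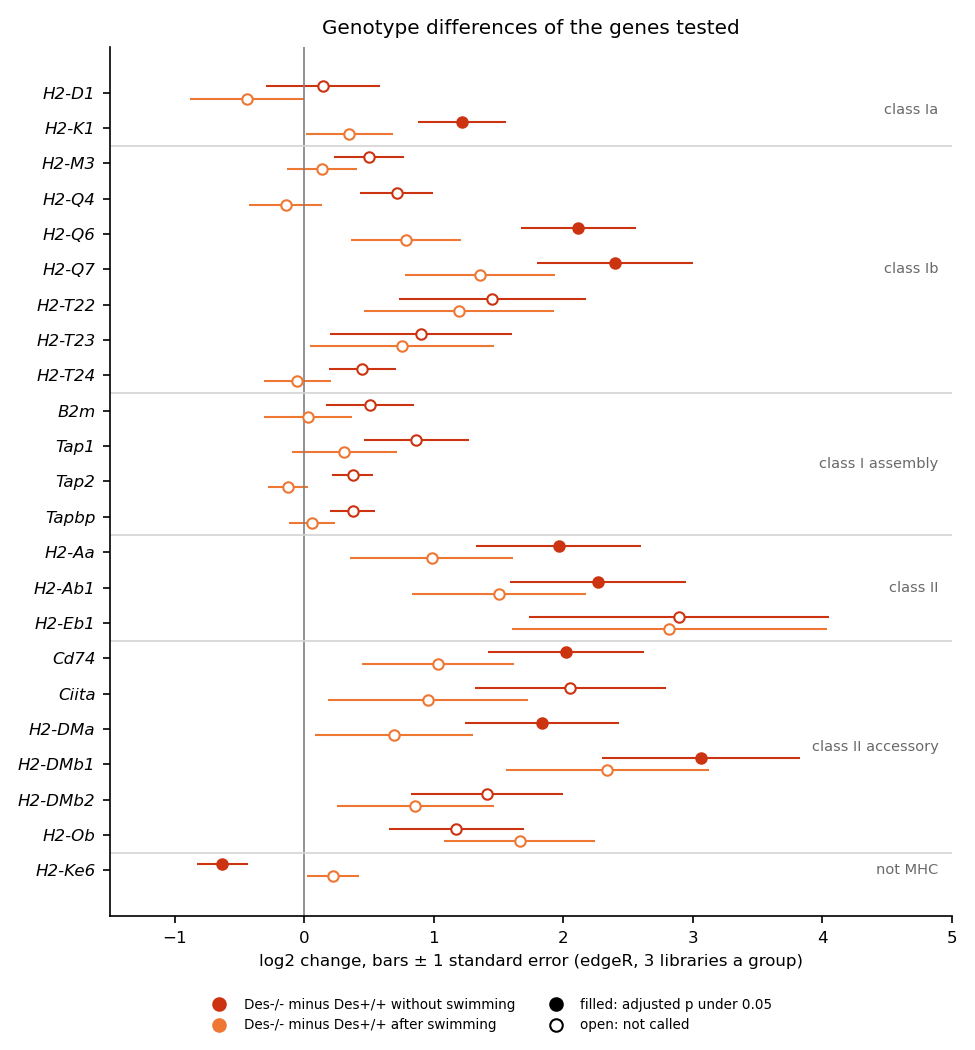
Log2 change between Des-/- and Des+/+ libraries (x axis, bars ± 1 SE derived from the edgeR test, 3 libraries a group) for the 23 genes tested (y axis, grouped by role), without swimming and after swimming. Filled points have an adjusted p under 0.05. Without swimming 22 of 23 points lie above 0 and 9 are filled, and after swimming 19 lie above 0 and 0 are filled.

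The libraries left out decided how many genes were called, in the set and over all genes. With all libraries, 9 genes of the set and 32.0% of all genes were called. Without Des+/+ non-swim replicate 2 or 3 or Des-/- non-swim replicate 3, the share of all genes fell to 19.5%, 21.9% and 21.1%. In each of these fits the count in the set fell from 9 to 3, each time with H2-DMb1, H2-Q6 and H2-Q7 as the 3. It also fell to 3 (H2-Ke6, H2-Q6 and H2-Q7) without the 4 libraries that stood apart. The sizes of the class II changes moved with the library left out. Without the 4 libraries they were 2.50 for H2-Aa, 2.54 for H2-Ab1 and 2.45 for Cd74 on the log2 scale, with adjusted p-values of 0.0753, 0.101 and 0.0725. Without Des-/- non-swim replicate 3 alone they fell to 1.15 for H2-Aa (from 1.96), 1.43 for H2-Ab1 (from 2.27), 1.28 for Cd74 (from 2.02) and 1.08 for H2-DMa (from 1.83), with adjusted p-values of 0.162, 0.108, 0.105 and 0.17. H2-Q7, of class Ib, was at 2.35 (from 2.40) and called without that library. With replicate 3 of both Des-/- groups left out, a fit chosen after seeing the data, 9 genes and 28% of all genes were called. Of these 9, 7 were called in the main fit, with H2-Aa, H2-Ab1, Cd74 and H2-DMb1 among them. H2-DMa and H2-Ke6 lost the call there, and H2-Ob and H2-T24 gained it.

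Markers of other cells differed between the same groups. Of 14 macrophage markers, 11 were called higher in Des-/- non-swim libraries and 0 lower, where 14.0% of all genes were called higher and 18.0% lower. None of the 14 was at 0 in all libraries. Their summed level was 264 to 386 CPM in Des+/+ non-swim, 312 to 365 in Des+/+ swim, 481 to 4624 in Des-/- non-swim and 292 to 1515 in Des-/- swim libraries. The summed level of H2-Aa, H2-Ab1 and Cd74 ran from 83.5 to 193 CPM, from 99.2 to 189, from 278 to 982 and from 124 to 592 in the same order of groups. Replicate 3 was the highest library in both measures in both Des-/- groups. In Des-/- non-swim it carried the macrophage sum, at 4624 CPM against 782 and 481 CPM in replicates 1 and 2. How the marker calls depend on that library was not examined. Divided by the macrophage sum, the class II sum was 0.501, 0.369 and 0.316 in Des+/+ non-swim and 0.435, 0.578 and 0.212 in Des-/- non-swim libraries, so the ratio overlapped between genotypes. In bulk RNA, fewer cells of a type and less RNA per cell cannot be told apart, and the part of macrophages in the class II result was not tested.

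**Figure D4:**
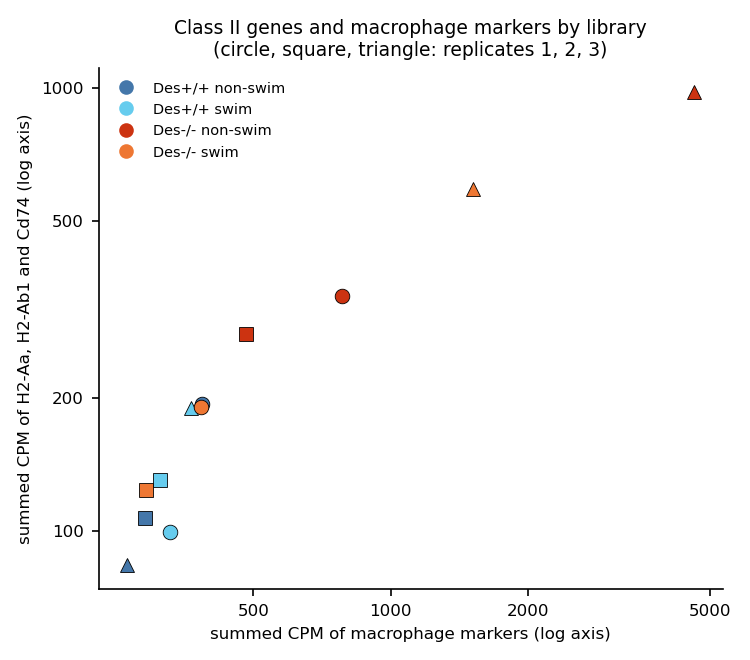
Summed CPM of H2-Aa, H2-Ab1 and Cd74 (y axis, log scale) against summed CPM of 14 macrophage markers (x axis, log scale); each point is a library, coloured by group with the replicate number given by shape. The 2 libraries highest on both axes are replicate 3 of Des-/- non-swim (4624 and 982 CPM) and replicate 3 of Des-/- swim (1515 and 592 CPM).

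Among the other cell types, the markers of B cells and of T and NK cells were nearest to the detection limit. Of 7 B cell markers in the files 4 were tested and 3 called higher, with sums of 3.18 to 3.62 CPM in Des+/+ non-swim and 9.71 to 14.9 CPM in Des-/- non-swim libraries. Of 7 dendritic cell markers 5 were tested and 3 called higher, with sums of 65.0 to 93.7 and 100.3 to 192 CPM. Of 10 T and NK cell markers only 2 were tested and 8 had a mean under 5 reads, and 1 was called higher. All 10 fibroblast markers were called higher, against 14.0% of all genes, with sums of 3363 to 3933 and 8649 to 40551 CPM. The highest sum was that of Des-/- non-swim replicate 3, with 9551 and 8649 CPM in replicates 1 and 2. All 10 cardiomyocyte markers were called lower, against 18.0% of all genes, and 0 of 10 endothelial markers were called. The part of these cells in the results on MHC genes was not tested.

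After swimming, 0 of the 23 genes were called between Des-/- and Des+/+ libraries by edgeR, where 10.6% of all genes were called. At an unadjusted p under 0.05 there were 5 (H2-Ab1, H2-DMb1, H2-Eb1, H2-Ob and H2-Q7), against 30.5% of all genes, and DESeq2 called 1, H2-DMb1, against 17.7% of all genes. The median log2 change of the 23 was 0.75, and 19 lay above 0, against 51.6% of all genes. H2-DMb1 was at 2.36, 0.96 and 0.85 CPM in Des+/+ swim and at 2.42, 4.16 and 14.8 CPM in Des-/- swim libraries. These did not overlap, though only narrowly, and the log2 change was 2.34 (SE 0.78, adjusted p = 0.0742). H2-Ob also did not overlap, with a log2 change of 1.66 (SE 0.58, adjusted p = 0.0844). H2-K1 was at 554, 388 and 640 CPM in Des+/+ swim and at 462, 503 and 1046 CPM in Des-/- swim libraries, which overlapped (log2 change 0.35, SE 0.33, adjusted p = 0.508). Replicate 3 of Des-/- swim was the highest of its group in H2-K1, H2-Q6, H2-Q7, H2-Aa, H2-Ab1 and Cd74. H2-D1 had a log2 change of -0.45 (SE 0.44, adjusted p = 0.52), and 0.02 (SE 0.50, adjusted p = 0.991) without the 4 libraries that stood apart, which leaves a single Des+/+ swim library whose spread is assumed to be that of the other groups. Of the macrophage markers 1 of 14 was called after swimming, and of the fibroblast markers 2 of 10, all as higher. Of all genes, 5.01% were called higher. The difference between the genotype effects with and without swimming is the interaction given below.

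Swimming itself was compared within each genotype. In Des+/+ libraries 0 of 23 genes were called by edgeR, where 0.0912% of all genes were called. At an unadjusted p under 0.05 there were 5 (B2m, H2-D1, H2-Q4, H2-Q6 and H2-Ke6), against 20.5% of all genes, and DESeq2 called 2, H2-Q4 and H2-Q6, against 6.17% of all genes. H2-Q6 was at 59.2, 32.5 and 76.4 CPM in Des+/+ swim libraries, all above the Des+/+ non-swim libraries given above, with a log2 change of 1.30 (SE 0.44, adjusted p = 0.143). H2-Q4 was at 105 ± 25.3 CPM without and 196 ± 56.7 CPM with swimming (SD, n = 3), with no overlap and a log2 change of 0.90 (SE 0.28, adjusted p = 0.128). H2-D1 and B2m had log2 changes of 1.12 (SE 0.45, adjusted p = 0.195) and 0.81 (SE 0.34, adjusted p = 0.216), while 2 of 3 swim libraries and 1 of 3 non-swim libraries were among those that stood apart with high H2-D1.

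In Des-/- libraries 0 of 23 genes were called for swimming by edgeR, where 0.0228% of all genes were called. At an unadjusted p under 0.05 there was 1, H2-DMa (log2 change -1.44, SE 0.59, adjusted p = 0.267), against 16.7% of all genes, and DESeq2 called 0, against 2.58% of all genes. H2-Aa was at 113 ± 84.7 CPM without and 55.4 ± 47.1 CPM with swimming, and H2-Ab1 at 129 ± 99.1 and 69.2 ± 66.9 CPM (SD, n = 3). Same-numbered libraries of these 2 groups deviated together, though the labels do not say that they are paired. Set side by number, the summed level of H2-Aa, H2-Ab1 and Cd74 was 191 against 340, 124 against 278 and 592 against 982 CPM. It was lower with swimming each time, and replicate 3 was the highest of both groups. With the replicate number as a block the log2 change was -1.05 for H2-Aa (SE 0.52, adjusted p = 0.319) and -0.99 for H2-Ab1 (SE 0.51, adjusted p = 0.335), and 0 of the 23 genes were called. Without the block, log2 changes were -1.02 (SE 0.62) for H2-Aa, -0.89 (SE 0.65) for H2-Ab1, -1.35 (SE 1.09) for H2-Eb1 and -0.72 (SE 0.58) for Cd74. H2-K1 (-0.22, SE 0.33), H2-Q6 (-0.03, SE 0.42) and H2-Q7 (-0.06, SE 0.56) had log2 changes smaller than their errors.

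For the interaction, which asks whether the genotypes responded differently to swimming, 0 of 23 genes and 0 of all 13158 (0.00%) were called by edgeR. DESeq2 called 0 of the 23 and 2.49% of all genes. At an unadjusted p under 0.05 there were 3 genes (H2-Ke6, H2-Q6 and Tap2), against 16.3% of all genes. H2-Ke6 had an interaction of 0.86 (SE 0.28, adjusted p = 0.211) and H2-Q6 of -1.33 (SE 0.60, adjusted p = 0.305). A genotype effect that differs between swum and unswum mice was therefore not detectable for any gene of the set with these replicates.

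The pathway around the MHC genes was described from a list of 38 other genes of antigen presentation, of which 36 were in the files and all 36 were tested. Without swimming 4 were higher and 2 lower in Des-/- libraries, or 16.7% called against the 32.0% of all genes, at a median log2 change of 0.25. Ctss (cathepsin S, which cleaves the invariant chain) had a log2 change of 4.51 (SE 1.30, adjusted p = 0.0218), but 1 library carried it. Ctss was at 16.97, 9.47 and 9.02 CPM in Des+/+ and at 29.2, 21.6 and 755 CPM in Des-/- non-swim libraries, and without the last its log2 change was 1.12 (adjusted p = 0.273). Cd80, a costimulatory ligand, had a log2 change of 3.71 (SE 0.97, adjusted p = 0.0144), and of 1.80 (adjusted p = 0.0879) without the same library. Psmb8, an immunoproteasome subunit encoded beside Tap1, rose by 0.80 on the log2 scale (SE 0.22, adjusted p = 0.017) and Rela, an NF-kB subunit, by 0.47 (SE 0.13, adjusted p = 0.019). Lower were Ifngr2, a chain of the interferon gamma receptor, with -1.35 (SE 0.18, adjusted p = 8.52e-04), and Nfyc, a subunit of the Y box factor NF-Y, with -0.62 (SE 0.18, adjusted p = 0.0202). Of these 6, only Ifngr2 was called with each single library left out in turn.

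After swimming 2 of the 36 were called, or 5.56% against 10.6% of all genes, both lower. Ifngr2 had a log2 change of -1.17 (SE 0.18, adjusted p = 0.00887) and Jak2, a kinase of the same receptor, of -0.69 (SE 0.16, adjusted p = 0.0255), the latter not called when any of the 6 libraries compared was left out. Swimming and interaction gave 0 calls in the list by edgeR, with 6 of 36 genes at an unadjusted p under 0.05 for swimming in Des+/+, 7 in Des-/- and 5 for the interaction, where 20.5%, 16.7% and 16.3% of all genes were.

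Along the locus, the genes of the set were interspersed with 84 tested neighbours. Of these, 21 were higher and 7 lower without swimming, or 33.3% called against 32.0% of all genes. By direction, 25% were called higher against 14.0% of all genes, and 8.33% lower against 18.0%. The largest rises were those of Tnf (3.17, SE 1.00, adjusted p = 0.0312), Ltb (2.80, SE 0.87, adjusted p = 0.0294) and Aif1 (2.43, SE 0.66, adjusted p = 0.0168), the first 2 encoding cytokines of the tumour necrosis factor family and the third a macrophage protein. Without Des-/- non-swim replicate 3 none of them was called, at 1.86 for Tnf (adjusted p = 0.161), 2.85 for Ltb (adjusted p = 0.0515) and 1.73 for Aif1 (adjusted p = 0.0697). The largest falls were those of 2310061I04Rik (-1.76, SE 0.27, adjusted p = 0.00122), Vwa7 (-1.64, SE 0.45, adjusted p = 0.0173) and Znrd1as (-1.16, SE 0.25, adjusted p = 0.00536), of which Vwa7 lost its call without Des+/+ non-swim replicate 2 or Des-/- non-swim replicate 1.

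**Figure D5:**
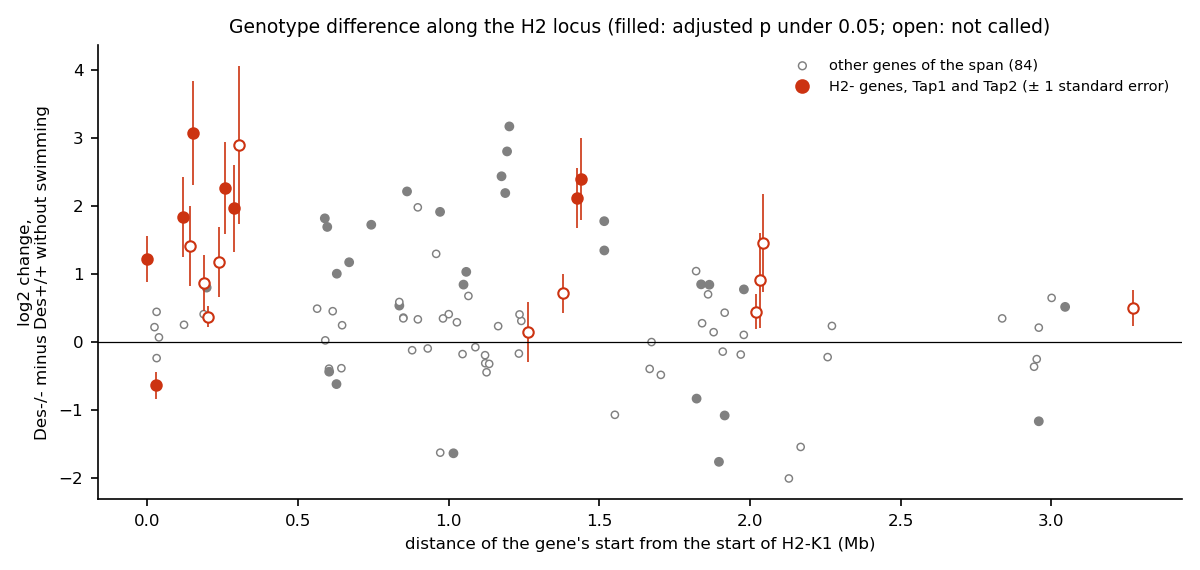
Log2 change between Des-/- and Des+/+ non-swim libraries (y axis) of the H2- genes with Tap1 and Tap2 (red, bars ± 1 SE) and of 84 other genes (grey), by distance of the gene's start from the start of H2-K1 (x axis, Mb); filled points have an adjusted p under 0.05. Genes that rose, fell or were not called lie side by side along the span, and 8 of the 9 genes called from the set lie in it.

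After swimming, 3 of the 84 neighbours were higher and 1 lower, or 4.76% called against 10.6% of all genes, and each of the 4 lost its call with some single library left out. Gabbr1 had a log2 change of 0.65 (SE 0.17, adjusted p = 0.0334), Nelfe of 0.64 (SE 0.14, adjusted p = 0.0205) and Ehmt2 of 0.52 (SE 0.14, adjusted p = 0.0361). Gm8909, a class I-like gene without an H2 symbol, had a log2 change of -5.39 (adjusted p = 0.0182), or -3.998 (adjusted p = 0.048) without Des+/+ swim replicate 2. It was at 8.15, 42.7 and 6.40 CPM in Des+/+ swim libraries and at 0.427 to 0.462 CPM in Des-/- swim libraries, which is 2 or 3 reads each. In Des+/+ non-swim libraries it was at 2.00, 0.234 and 0 CPM, so its level varied by library within Des+/+ as well.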

How the data were processed

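The authors deposited raw counts of reads per gene for 12 libraries, made by aligning single-end reads of 100 bases to GRCm38 with HISAT2 (2.2.1), converting them with SAMtools (1.13) and counting with HTSeq-count in reverse-strand mode. The kit was TruSeq per the labels; a directional kit is given in the methods of the study. The 5 summary rows per file (reads without a feature, ambiguous or with several alignments; 23.4 to 37.0% of aligned reads had several) were left out. Files hold 0 other columns of values per sample.

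The analysis used edgeR 4.0.16 under R 4.3.3: filterByExpr kept 13158 of 21493 genes, TMM scaled the libraries, and 1 model of 4 group means (8 residual degrees of freedom) gave quasi-likelihood tests of 5 contrasts, with Benjamini-Hochberg adjustment over all genes and a threshold of 0.05. As replicates are pools, p-values measure the spread between pools. Each SE was derived from the test, as the absolute log2 change divided by the square root of its F statistic. Positions and exon lengths came from GENCODE M21. Transcript stretches of 100 bases were compared for exact identity. The floor was 3 counts, for counting error only.

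Genes, lists and tests were chosen with earlier results of these data known. Named were Des, the main class I, assembly and class II genes, every other called gene of the set, and the largest called changes of the antigen presentation list (up to 5 in each direction) and of the locus neighbours (up to 3). The labels number the replicates but do not say that same-numbered libraries are paired. Correlations of same-numbered deviations were highest for swimming in Des-/- (0.365, 0.316 and 0.602). With the number as a block, 0 of the 23 genes were called there. Alternatives were other scalings and filters, DESeq2 1.42.0, the study's filter (log2 change of at least 0.6, p of at most 0.05, mean count of at least 20), 6-library fits, the block and each library left out; 2 larger leave-outs were chosen after seeing the data. The procedure was also run on simulated counts without outlying libraries, so that run does not bear on calls that a single library carries.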

Additional observations from a re-analysis of the deposited data

Results flagged for a closer look

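Reads with several alignments were counted to no gene and enter no comparison. Their share of aligned reads was 30.4% ± 1.4 (SD, n = 3) in Des+/+ swim and 34% ± 2.8 in Des-/- swim libraries, above the 24.3% ± 1.27 of the control Des+/+ non-swim libraries. Since class I genes resemble each other, some of these reads could belong to the H2 locus, which was not tested.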

How the results depend on the processing

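Without swimming, the 9 genes called between genotypes became 10 or 11 with RLE or upper-quartile scaling, DESeq2, no or a stricter filter on low counts or only the 6 libraries compared. These settings called 22.5 to 36.4% of all genes. The study's filter gave 14 (32% of all genes), leaving out the 4 libraries that stood apart gave 3 (15.7%), leaving out replicate 3 of both Des-/- groups gave 9 (28%), and leaving out single libraries gave 3 to 12 (19.5 to 34.4%). H2-Q6 and H2-Q7 were called in every one of these fits. After swimming, where 0 were called, DESeq2 gave 1 (17.7% of all genes), the study's filter 5 (18.4%) and single leave-outs 0 to 1. For swimming in Des+/+ DESeq2 gave 2 (6.17%) and the study's filter 5 (11.1%), for swimming in Des-/- the study's filter gave 2 (9.42%), and for the interaction 3 (14.3%), against 0 each. Leave-outs and the added alternatives test fewer samples; the cause of the other differences was not tested. With the replicate number as a block, 10 genes were called without swimming and 0 in each other comparison. The labels do not say that same-numbered libraries are paired, so this is no paired result. Over the 120 results on single genes, including Des, and all alternatives, 11 were called in the main analysis; they lost the call in 31 of 242 alternative values and reversed in 0. The 109 not called gained a call in 53 of 2366 values and had the other sign, uncalled, in 80. Depth limits the 16 untested genes, H2-DMb2, H2-Ob and Ciita most.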
